A study of Homo sapiens with 6 samples.

Results

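The transcripts of 10 genes that encode erythroid and haematopoietic transcription factors and their direct cofactors were followed from whole cells (WC) to extracellular vesicles (EV) of K562, an established line of human chronic myeloid leukaemia cells with erythroid and megakaryocytic features. The 10 genes were GATA1, GATA2, KLF1, TAL1, LMO2, LDB1, NFE2, GFI1B, MYB and ZFPM1, chosen by symbol among 68201 counted genes, and all 10 were found. The series holds 3 WC and 3 EV libraries, all of untreated K-562 cells labelled as WT, from culture in RPMI medium with foetal bovine serum. Per the study's methods, vesicles came from conditioned medium made with serum depleted of EVs and were purified by size exclusion chromatography, and cell RNA was taken from representative cells of each replicate. Poly(A) RNA was copied into cDNA without fragmentation, amplified by PCR and read on nanopores. The paper reports that most reads of both WC and EV did not span their full annotated transcript. A read counted for a gene is therefore not evidence of an intact mRNA. The cells are 1 leukaemic line, so the libraries describe that line and its vesicle preparation and not primary erythroid cells.

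Red cell precursors are specified by a small set of DNA-binding proteins that act on the same enhancers. GATA1 and GATA2 bind GATA motifs, GATA2 in early progenitors and GATA1 in maturing erythroid and megakaryocytic cells, and ZFPM1 (FOG1) is the zinc finger cofactor of GATA1. TAL1 is a basic helix-loop-helix factor, LMO2 a LIM-domain bridge without DNA binding of its own, and LDB1 the dimerizing adaptor that brings LMO2, TAL1 and GATA1 together and loops enhancers to promoters. KLF1 activates the adult beta-globin gene, NFE2 pairs with small MAF proteins at globin enhancers, GFI1B is a zinc finger repressor, and MYB keeps progenitors in cycle.

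The authors' isoform models from the long reads had values for forms of GATA1, GATA2, KLF1, NFE2 and GFI1B only. For GATA1, GFI1B and NFE2 the reference sequences that tell forms apart are printed here. GATA1, on the plus strand of the X chromosome (chrX:48786540-48794311, GRCh38), had 2 start codons among its isoform models, and the downstream one opens the frame of GATA1s, the known short protein that lacks the amino-terminal activation domain. The 30 bases from each start (chrX:48791110-48791139 and chrX:48791873-48791902) are given with the start codon in capitals.
GATA1 upstream start: ATGgagttccctggcctggggtccctgggg
GATA1 downstream start: ATGgaggggatcccagggggctcaccatat
The exon 2 that holds the upstream start (chrX:48791091-48791329, 239 nt) is spliced out of GATA1-203, and the joined sequence then changes, shown as 15 bases of exon 1 in lower case and 15 bases of the next exon in capitals.
GATA1 exon 1 to exon 2: caaccaccagcccagGTTAATCCCCAGAGG
GATA1 exon 1 to exon 3: caaccaccagcccagTCTTTCAGGTGTACC
The starts lie 249 nt apart in the spliced mRNA, which is 83 codons with no remainder, so both read the same frame.

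GFI1B, on chromosome 9 (chr9:132944000-132991687, plus strand), has an exon of 138 nt (chr9:132989061-132989198, 46 codons) that was kept or skipped. The junction is shown with the upstream exon in lower case and the first 15 bases of the exon that follows in capitals, and the exon itself is printed on the last line.
GFI1B exon kept: gtgaagtgcaacaagGTCTTCTCCACCCCT
GFI1B exon skipped: gtgaagtgcaacaagGAGCGCAGCTTCGAG
GFI1B alternative exon: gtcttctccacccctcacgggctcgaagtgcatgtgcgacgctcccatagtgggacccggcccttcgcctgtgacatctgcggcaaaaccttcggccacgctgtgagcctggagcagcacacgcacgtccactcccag
NFE2, on chromosome 12 (chr12:54292111-54301015, minus strand), starts from a distal first exon (chr12:54300801-54301015) or a proximal one (chr12:54295544-54295758), 5257 nt apart. A further model began at a middle first exon (chr12:54297764-54297884) and was not among the isoforms listed with a value. The distal and the proximal first exon join the same coding exon, whose first 15 bases are in capitals.
NFE2 distal first exon: gtgactccaccacagGTTTCTAGAGCCATC
NFE2 proximal first exon: ttgcctggaaaaaagGTTTCTAGAGCCATC
TAL1 (chr1:47216290-47232225, minus strand) and LMO2 (chr11:33858576-33892076, minus strand) were the members with the largest fold changes reported below, and the first 30 bases of their coding frames (chr1:47225859-47225888 and chr11:33869357-33869386) are shown with the start codon in capitals.
TAL1 start: ATGaccgagcggccgccgagcgaggcggct
LMO2 start: ATGtcctcggccatcgaaaggaagagcctg
All sequences are those of the GRCh38 reference, read 5′ to 3′ on the strand of the gene.

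The WC libraries held 2480558 to 3178211 counts over 21997 to 23874 genes and the EV libraries 560157 to 881337 counts over 12891 to 14263 genes, so EV values rest on fewer reads. Levels are given as CPM (reads of a gene scaled to a fixed library total) after TMM scaling, a factor that sets the bulk of genes equal between libraries, and changes are therefore relative to the other mRNAs of a library and not numbers of molecules per cell or vesicle. In such bulk libraries, fewer cells or vesicles that carry a transcript and less of it in each cannot be told apart. Of 8 erythroid markers all had reads, and their summed CPM ranged from 258 to 287 in WC and from 435 to 552 in EV. HBG2 alone went from a mean of 10.8 CPM in WC to 214 in EV, a value uncertain because of its near-identical copy HBG1. TFRC (142 to 66.0 CPM) and EPOR (5.51 to 3.48 CPM) went the other way, so the sums do not describe each marker. Defining markers of other cells were at or near 0: 3 of 4 B cell, 2 of 5 granulocyte or monocyte, 1 of 4 T cell, 2 of 4 epithelial and 2 of 4 fibroblast markers had no read in any library. The exceptions were CD3D, with 272 WC and 58 EV reads, and EPCAM, with 761 WC and 59 EV reads. The B cell markers summed to 37 WC and 2 EV reads and the granulocyte or monocyte markers to 39 and 2. These WC sums are close to the 32 WC reads of LMO2 and the 45 of TAL1.

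Together the 10 genes had 1165, 1430 and 1166 reads in the WC libraries 1 to 3 and 301, 137 and 147 in the EV libraries 1 to 3. Before TMM scaling these were 433 to 470 CPM in WC and 245 to 342 CPM in EV, without overlap, whereas with TMM scaling the sums were 391, 356 and 330 CPM in WC and 407, 312 and 331 CPM in EV and overlapped. Of the 9 genes with enough reads to be tested, 3 rose in EV (TAL1, LMO2 and MYB), 2 fell (LDB1 and NFE2) and 4 were not called (GATA1, GATA2, KLF1 and GFI1B) by edgeR's quasi-likelihood test at a Benjamini-Hochberg adjusted p under 0.05. Over all 8716 tested genes 44.2% were called, 22.8% rose and 21.4% fell. Over the 6768 protein-coding ones 37.1% were called, 14.9% rose and 22.2% fell, and beside these shares 5 calls among 9 genes are no result about the set. TAL1 and LMO2 also passed the stricter mark of EV enrichment, a log2 fold change of 2 or more whose adjusted p did not exceed 0.01. These are the thresholds of the study, applied here to the edgeR values. The mark was reached by 4.53% of all and 1.64% of protein-coding genes (10.5% of all genes reached it in either direction). WC and EV libraries did not overlap for 6 of the 9 genes, 3 higher and 3 lower in EV, where the background was 54.9% of all and 49.5% of protein-coding genes. The median log2 fold change of the 9 was -0.22, beside -0.24 for protein-coding and -0.13 for all tested genes. Scaled by total counts alone, the median of all genes moved from -0.13 to -0.78, the share of calls that rose moved from 51.6% to 19.2%, and 2 of the 9 genes rose and 6 fell. The p-values measure the spread between these libraries.

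**Figure D1:**
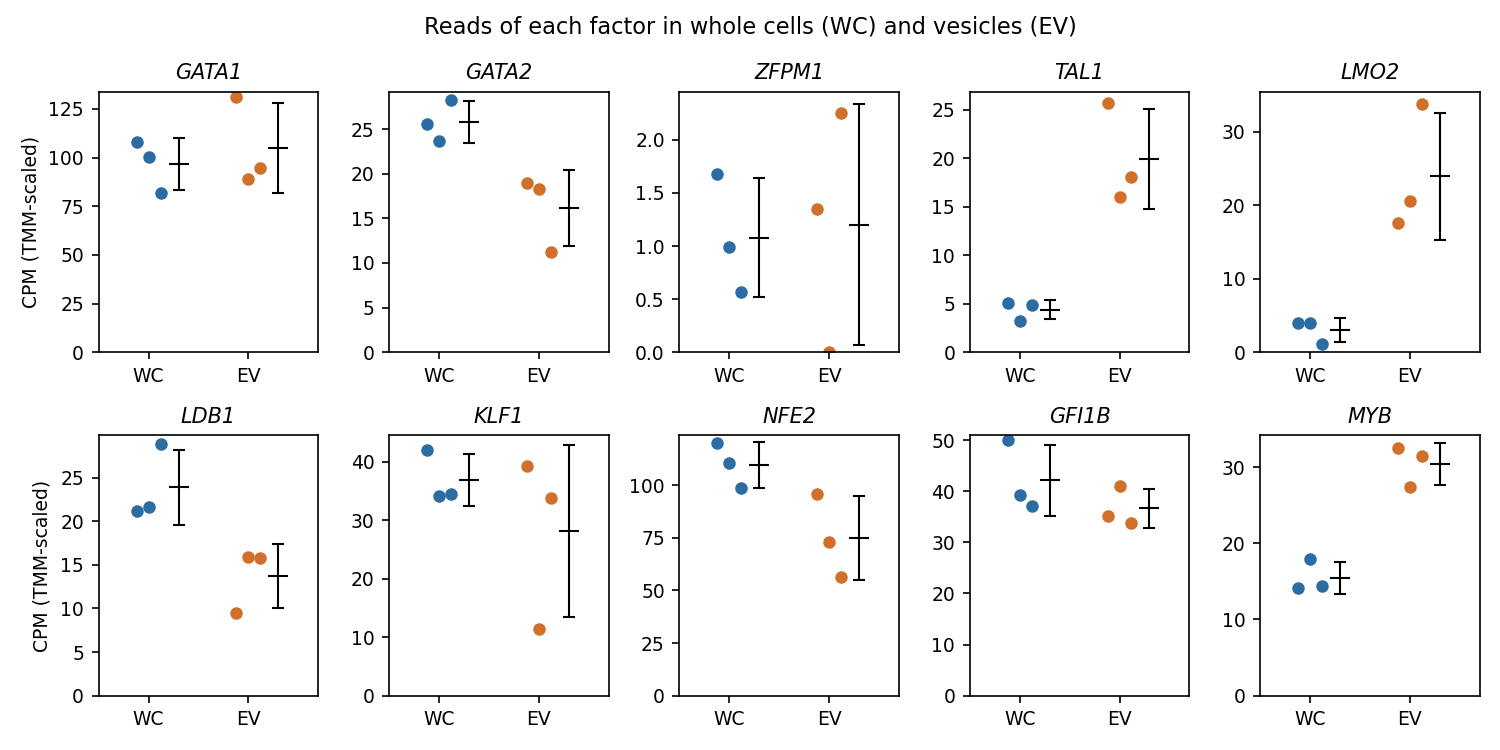
TMM-scaled CPM of the 10 genes in each WC (blue) and EV (orange) library, each panel on its own axis from 0, with the mean and SD of 3 libraries beside the points. TAL1, LMO2 and MYB lie higher in every EV library than in any WC library, GATA2, LDB1 and NFE2 lie lower, and the remaining 4 overlap.

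TAL1 and LMO2, which meet in the same complex, were the members most shifted to vesicles, whereas LDB1, the adaptor that holds them, moved the other way. LMO2 had 12, 16 and 4 reads in the WC libraries and 13, 9 and 15 in the shallower EV libraries. In CPM these were 4.03, 3.98 and 1.13 in WC and 17.6, 20.5 and 33.8 in EV, so that the lowest EV library stood well above the highest WC library. The mean rose from 3.05 ± 1.66 to 24.0 ± 8.63 CPM (SD, n = 3), a log2 fold change of 2.88 (SE 0.43, 95% interval 2.00 to 3.76) with an adjusted p of 5.0e-06 from edgeR. TAL1 had 15, 13 and 17 reads in WC and 19, 7 and 8 in EV. Its CPM were 5.04, 3.23 and 4.81 in WC and 25.7, 16.0 and 18.0 in EV, again without overlap. The mean rose from 4.36 ± 0.982 to 19.9 ± 5.14 CPM (SD, n = 3), a log2 fold change of 2.25 (SE 0.37, 95% interval 1.48 to 3.01) with an adjusted p of 2.3e-05 from edgeR.

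Both are low genes, and the filter on low counts let them in through the EV libraries: at its cutoff of 5.95 CPM before TMM scaling, LMO2 passed in 3 EV and 0 WC libraries and TAL1 in 3 EV and 2 WC libraries. A gene admitted only through the group where it is high has to differ, so the fold change was also taken with other filters. With every gene of at least 5 reads on average in WC or in EV, a mean that both genes reached in each group, LMO2 had 2.83 and TAL1 2.20. With no filter they had 2.67 and 2.04. Summed reads were 37 EV against 32 WC for LMO2 and 34 against 45 for TAL1, which gives scaled ratios of 7.50 (exact 95% interval 4.55 to 12.4) and 4.90 (3.05 to 7.83) for counting error only. An antisense lncRNA, ENSG00000226252, shares 845 nt of exon with TAL1. It had 12 WC reads and 0 EV reads, and whether counting used strand is not given in the sources used here.

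LDB1 (chr10:102106489-102120368, minus strand) had 63, 87 and 102 reads in WC and 7, 7 and 7 in EV. Its CPM of 9.47, 16.0 and 15.8 in EV all lay below the 21.2, 21.6 and 28.9 of WC. The mean fell from 23.9 ± 4.32 to 13.7 ± 3.69 CPM (SD, n = 3), a log2 fold change of -0.89 (SE 0.33, 95% interval -1.58 to -0.20) with an adjusted p of 0.0334 from edgeR. The call ended without WC library 3 (adjusted p = 0.0670), without EV library 1 (0.200), with DESeq2 (0.0795) and with protein-coding genes only (0.0831), while the sign stayed negative in each.

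Per length, the complex members changed order. In TPM (reads divided by exon length and scaled to a fixed total, computed here), LDB1 stood at 6.30 ± 1.55 and LMO2 at 1.02 ± 0.526 in WC, and LDB1 at 1.80 ± 0.373 and LMO2 at 4.08 ± 1.20 in EV (SD, n = 3). The lowest EV library for LMO2, at 3.32 TPM, was above the highest for LDB1, at 2.06. TAL1 stood at 0.754 ± 0.171 TPM in WC, below the range of LDB1, and at 1.77 ± 0.602 TPM in EV, where its range overlapped that of LDB1.

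**Figure D2:**
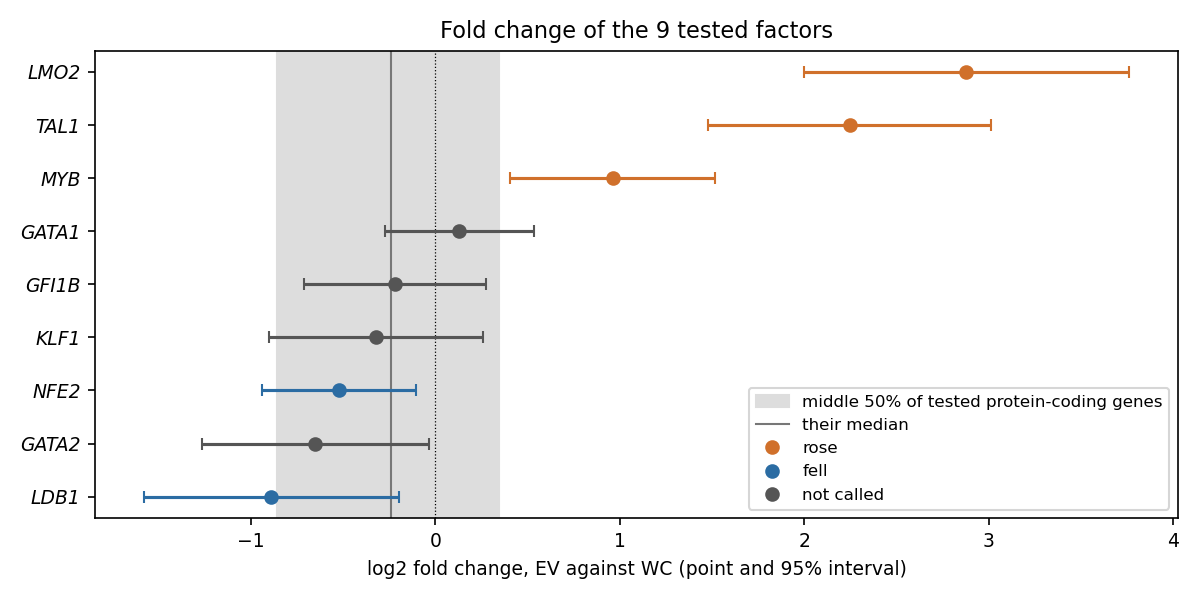
Log2 fold change of EV against WC for the 9 tested genes with 95% intervals, coloured by call, over the middle 50% of tested protein-coding genes (grey) and their median. The intervals of LMO2 and TAL1 lie wholly above the grey band, as does that of MYB, which starts at 0.41 just over the band's edge of 0.34. The other 6 points lie in or just below the band.

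The GATA factors were not called, and GATA1, the more abundant of the pair per length, differed by less than the spread between libraries. GATA1 had 321, 404 and 289 reads in WC and 97, 39 and 42 in EV, or 108, 101 and 81.8 CPM in WC and 131, 88.9 and 94.6 CPM in EV. The libraries overlapped, and the means were 96.7 ± 13.4 and 105 ± 23.0 CPM (SD, n = 3). The log2 fold change was 0.13 (SE 0.20) with a 95% interval of -0.27 to 0.53, which leaves out a doubling or a halving, and the adjusted p from edgeR was 0.613. Its sign was negative in 5 of 14 alternatives, and under total-count scaling it was called as lower in EV (-0.52, adjusted p = 0.0270).

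GATA2 (chr3:128479427-128493201, minus strand) had 76, 95 and 100 reads in WC and 14, 8 and 5 in EV. Its CPM were 25.5, 23.6 and 28.3 in WC and 18.9, 18.2 and 11.3 in EV, so every EV library lay below every WC library. The log2 fold change of -0.65 (SE 0.30, 95% interval -1.27 to -0.04) did not pass the test over all genes, with an adjusted p of 0.0802 from edgeR, but did under total-count scaling (-1.30) and with WC libraries thinned to EV depth (-0.92). The opposite-strand GATA2-AS1 shares 78 nt of exon with GATA2 and had 45 WC and 3 EV reads.

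Of the reads of GATA1 and GATA2 together, GATA1 took 80.9%, 81.0% and 74.3% in WC and 87.4%, 83.0% and 89.4% in EV. The means were 78.7% ± 3.82 and 86.6% ± 3.27 (SD, n = 3), a difference of 7.87 percentage points. All EV libraries were higher, but the two-sided exact permutation test gave p = 0.1, below which the 20 possible arrangements cannot go. Within replicate numbers the differences were 6.53, 2.02 and 15.1 points, all positive, and the two-sided exact sign-flip permutation test over these 3 pairs gave p = 0.25, also the smallest it allows. For EV library 2, with 47 reads in all, the exact (Clopper-Pearson) 95% interval of the share ran from 69.2% to 92.4%. ZFPM1 (chr16:88453280-88537031, plus strand), the GATA1 cofactor, had 5, 4 and 2 reads in WC and 1, 0 and 1 in EV, and was not tested. The scaled EV to WC ratio was 1.18 with an exact 95% interval of 0.127 to 5.41, so no difference was detectable at this depth.

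KLF1 and NFE2, activators at the globin genes, followed GATA1 in TPM in both WC and EV, and neither rose in vesicles. NFE2 had 357, 444 and 348 reads in WC and 71, 32 and 25 in EV. Its CPM were 120, 110 and 98.5 in WC and 96.0, 72.9 and 56.3 in EV, with the highest EV library just under the lowest WC library. The mean fell from 110 ± 10.7 to 75.1 ± 20.0 CPM (SD, n = 3), a log2 fold change of -0.52 (SE 0.20, 95% interval -0.94 to -0.11) with an adjusted p of 0.0383 from edgeR. The call ended without WC library 1 (adjusted p = 0.0653), WC library 2 (0.0582), EV library 2 (0.109) or EV library 3 (0.207), and with protein-coding genes only (0.130).

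KLF1 (chr19:12884422-12887201, minus strand) had 125, 137 and 122 reads in WC and 29, 5 and 15 in EV. In CPM these were 42.0, 34.1 and 34.5 in WC and 39.2, 11.4 and 33.8 in EV, where library 2 stood apart from the other two. The log2 fold change was -0.32 (SE 0.28, 95% interval -0.90 to 0.26), and the adjusted p from edgeR was 0.373. Without EV library 2 it was -0.01, and under total-count scaling it was -0.97 with an adjusted p of 0.0066.

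MYB rose in vesicles and GFI1B was not called. MYB (chr6:135181308-135219173, plus strand) had 42, 72 and 51 reads in WC and 24, 12 and 14 in EV. Its CPM of 32.5, 27.3 and 31.5 in EV all exceeded the 14.1, 17.9 and 14.4 of WC. The mean rose from 15.5 ± 2.11 to 30.4 ± 2.72 CPM (SD, n = 3), a log2 fold change of 0.96 (SE 0.27, 95% interval 0.41 to 1.52) with an adjusted p of 0.0053 from edgeR. The call ended under total-count scaling (0.31, adjusted p = 0.317) and with no filter on low counts (0.75, adjusted p = 0.0638). GFI1B had 149, 158 and 131 reads in WC and 26, 18 and 15 in EV, or 42.1 ± 6.93 and 36.7 ± 3.85 CPM (SD, n = 3), with overlapping libraries. Its log2 fold change was -0.22 (SE 0.24, 95% interval -0.71 to 0.27) with an adjusted p of 0.477 from edgeR, and -0.87 under total-count scaling with an adjusted p of 0.0032. The opposite-strand TSC1 shares 349 nt of exon with GFI1B and had 71 WC and 7 EV reads.

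**Figure D3:**
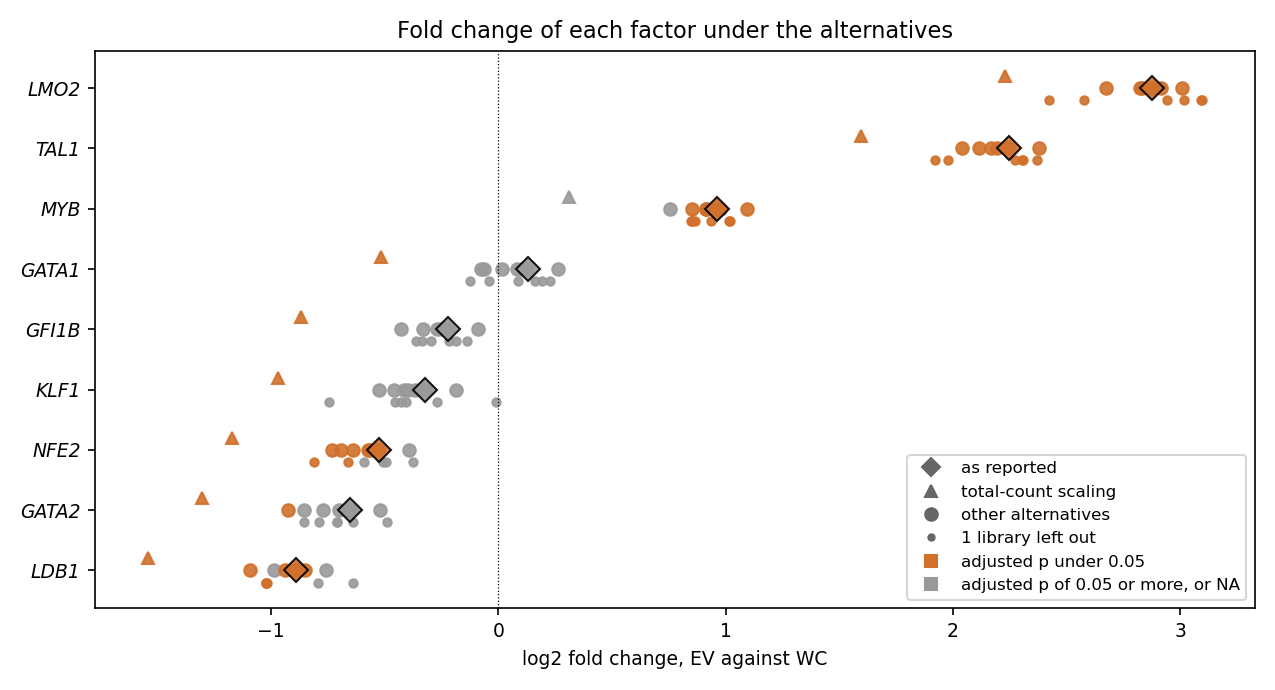
Log2 fold change of the 9 tested genes as reported (diamonds), under total-count scaling (triangles), under the other alternatives (circles) and with 1 library left out (dots), in orange where the adjusted p was under 0.05. LMO2 (2.23 to 3.10) and TAL1 (1.59 to 2.38) stay orange in the fits that tested them, and total-count scaling gives the lowest value for each gene.

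Ordered by TPM, the factor levels in WC ran from GATA1 (61.1 ± 4.87 TPM) through NFE2 (45.6 ± 1.47), KLF1 (22.5 ± 1.47), GFI1B (6.77 ± 0.654), LDB1 (6.30 ± 1.55), GATA2 (5.20 ± 0.752), MYB (2.78 ± 0.438), LMO2 (1.02 ± 0.526) and TAL1 (0.754 ± 0.171) to ZFPM1 (0.169 ± 0.0771). The ranges of neighbours overlapped between GFI1B and LDB1, LDB1 and GATA2, and LMO2 and TAL1, and were separate otherwise. In EV the order was GATA1 (34.2 ± 10.3 TPM), NFE2 (16.1 ± 5.59), KLF1 (8.85 ± 4.99), LMO2 (4.08 ± 1.20), GFI1B (3.01 ± 0.363), MYB (2.78 ± 0.407), LDB1 (1.80 ± 0.373), TAL1 (1.77 ± 0.602), GATA2 (1.66 ± 0.531) and ZFPM1 (0.0971 ± 0.0879). GATA1, NFE2 and KLF1 led in TPM in both, LMO2 went from rank 8 to rank 4, and GATA2 from rank 6 to rank 9. The cDNA was not fragmented, so reads of a gene need not grow with its exon length, and the order by CPM differed. By CPM, NFE2 (110) stood above GATA1 (96.7) in WC. GFI1B stood above KLF1 in WC (42.1 and 36.9 CPM) and in EV (36.7 and 28.1 CPM). With the longest transcript of each gene as its length, LMO2 came at rank 5 in EV, behind GFI1B, and GATA2 at rank 8. Neighbours in the EV order were separate between GATA1 and NFE2, LMO2 and GFI1B, MYB and LDB1, and GATA2 and ZFPM1. CPM with TMM scaling and TPM have different totals, so TPM values are compared within a group only.

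With TMM scaling, protein-coding genes with a shorter union of annotated exons tended to higher fold changes in EV. The members' exon lengths were set beside that trend. This length is that of the gene's exons and not of the mRNAs that were read. The median log2 fold change of protein-coding genes was 0.63 for exon lengths up to 1000 nt and -0.51 above 10000 nt. TAL1, with 5705 nt of exon, lay 2.45 above the median of the 1486 genes of 4000 to 6000 nt, and MYB, with 5497 nt, lay 1.17 above it. LMO2, with 2896 nt, lay 2.92 above the median of the 723 genes of 2000 to 3000 nt. LDB1, with 3776 nt, lay 0.79 below that of its class, whose quartiles were -0.68 and 0.46, and KLF1, with 1613 nt, lay 0.49 below that of its class, with a lower quartile of -0.30, while GATA1 (1553 nt) and GFI1B (6104 nt) lay within 0.16 of theirs. Over the 9 genes the fold change and log10 length had a Pearson correlation of 0.18 and a Spearman correlation of 0.15, given as a description of 9 genes that share the same 6 libraries.

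**Figure D4:**
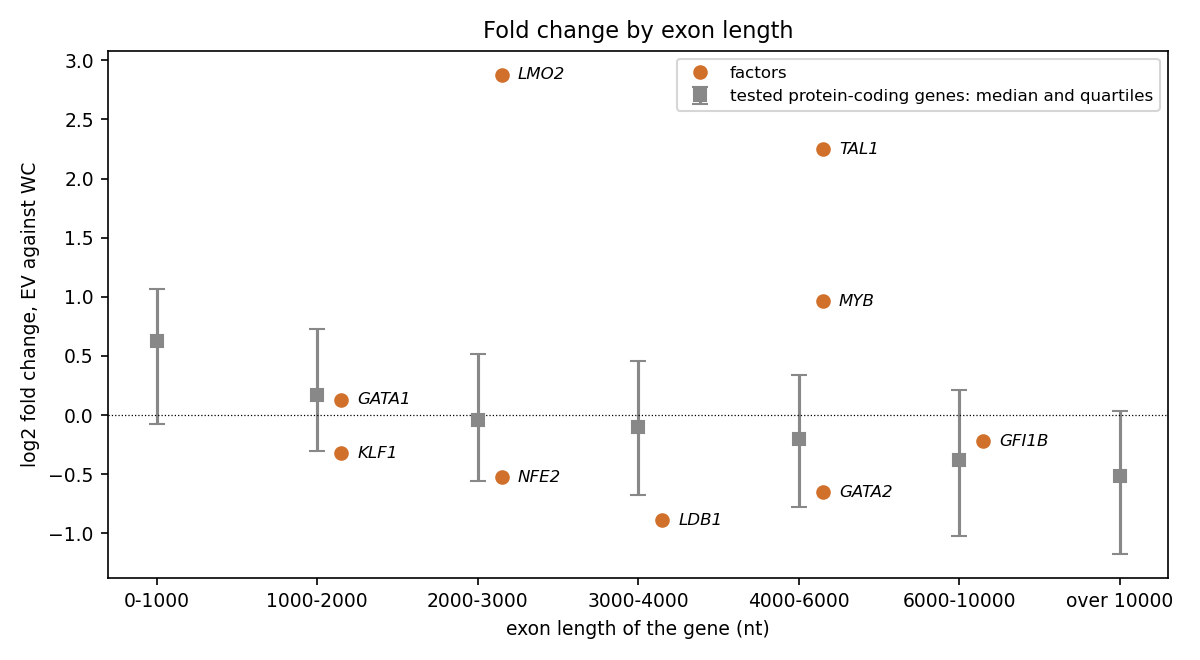
Log2 fold change of EV against WC by total exon length of the gene in nt: median and quartiles of tested protein-coding genes per length class (grey squares and bars) and the 9 factors (orange, in their class). The medians step down from 0.63 to -0.51, LMO2, TAL1 and MYB stand above the upper quartile of their class, and LDB1 and KLF1 stand below the lower one.

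Of the authors' isoform table only the normalized mean over all 6 libraries was used here, not its columns of the authors' own comparison, so these values describe WC and EV together and carry no test. Of 195235 isoform models 41 belonged to the members, 20 of them annotated transcripts. The table listed 13 of the 41, from GATA1, GATA2, KLF1, NFE2 and GFI1B, and none of TAL1, LMO2, LDB1, MYB or ZFPM1. GATA1-202, the form with the upstream start and 414 codons (stop codon included, here and below), had an authors' mean of 50.4 reads, or 57.3% of the 5 listed GATA1 isoforms. GATA1-203, which joins exon 1 to exon 3 and reads 331 codons from the downstream start printed above, had 11.6 reads or 13.2%. An unannotated GATA1 model of 5 exons that begins just upstream of exon 2, at chrX:48791088, and keeps all 414 codons had 13.4 reads. It ends where GATA1-202 ends, and whether it is a separate form or GATA1-202 read without its 5′ end was not tested. GATA1-204 had 7.63 reads and an unannotated form with a premature stop had 4.92.

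NFE2 forms that began at the distal first exon had an authors' mean of 47.1 reads, 71.6% of the gene, and the form from the proximal first exon had 18.7 or 28.4%. Each reads the same frame of 374 codons, so the first exons printed above change the leader and not the protein. GFI1B forms with the exon of 138 nt had 24.6 reads (82.5%) and the form without it, of 285 codons, had 5.22 (17.5%). KLF1 had a single model, KLF1-201, with 363 codons and 37.8 reads, and GATA2-203 had 2.63 reads. Over all 41 models the authors' prediction called 28 productive, 6 with a premature stop and 7 without a start, 6 of which were MYB models.

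**Figure D5:**
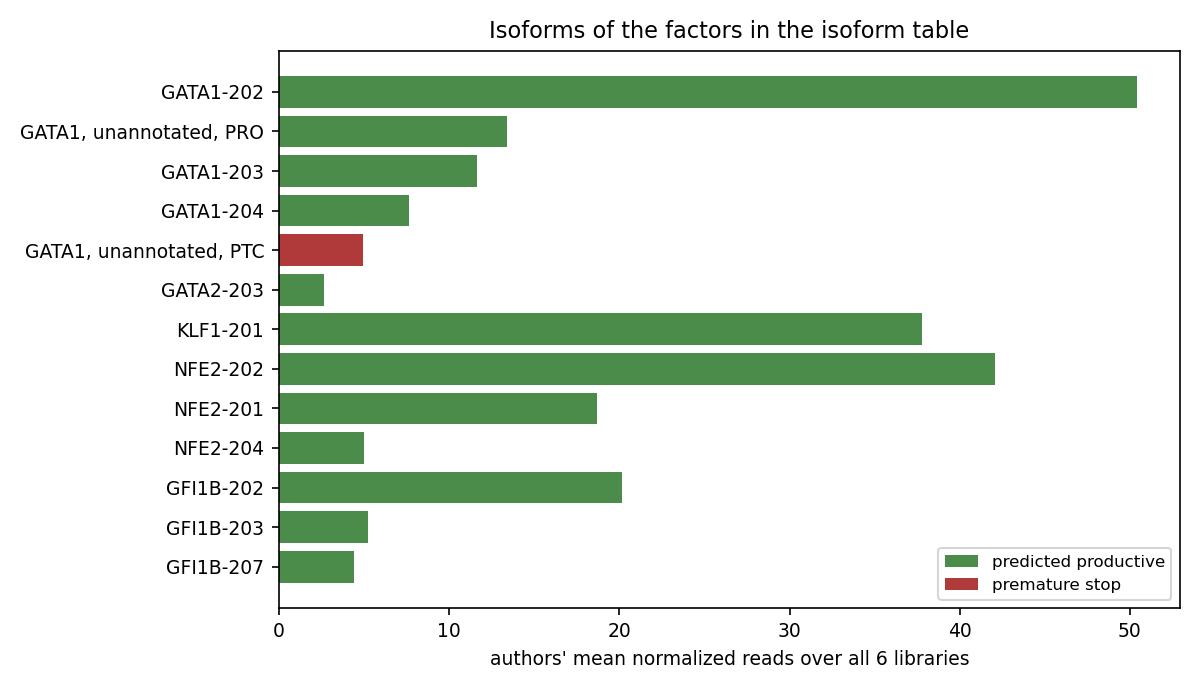
Authors' mean normalized reads over all 6 libraries for the 13 listed isoforms of the factors, in green where the authors predicted a productive frame and in red for a premature stop. GATA1-202 (50.4), NFE2-202 (42.1) and KLF1-201 (37.8) lead, and the GATA1 form with a premature stop (4.92) is the only red bar.

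Partners, competitors and targets of the factors were read from lists of genes, of which only the tested ones are counted and those named are among the 4 with the highest mean CPM unless stated. Their counts stand beside 22.8% risen and 21.4% fallen among all tested genes (median -0.13), and 14.9% and 22.2% among protein-coding genes (median -0.24). Of 10 tested partners of the GATA1, TAL1, LMO2 and LDB1 complex, 2 rose, 2 fell and 6 were not called, with a median log2 fold change of 0.32. RUNX1, a core-binding factor of progenitors, fell (-1.21, adjusted p = 0.0038), and its partner subunit CBFB (0.50), LMO4 (0.13) and the E-protein TCF12 (0.72) were not called. LYL1, the closest relative of TAL1, was singled out after its values were seen: it rose from 4.46 ± 1.06 to 24.8 ± 7.16 CPM (SD, n = 3), with 15, 13 and 18 reads in WC and 13, 14 and 11 in EV. Its log2 fold change of 2.40 (SE 0.37) had an adjusted p of 8.3e-06 from edgeR, and it was the list's only EV-enriched gene. TCF3, the E-protein partner of TAL1, also rose (0.99, adjusted p = 0.0228), and CBFA2T2, a corepressor, fell (-1.68, adjusted p = 0.0163), both named after their values were seen.

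Of 4 tested partners and competitors of NFE2, NFE2L2 (NRF2, the oxidative stress factor) rose from 11.1 ± 2.24 to 28.0 ± 4.62 CPM (SD, n = 3; log2 fold change 1.31, adjusted p = 0.00080). The small MAF partner MAFG (-0.59), the repressor BACH1 (-0.06) and NFE2L1 (-0.78) were not called. Of 10 tested corepressors that GFI1B and ZFPM1 recruit, 1 rose, 2 fell and 7 were not called, with a median of 0.02. The histone deacetylase HDAC1 fell from 95.8 ± 1.26 to 60.6 ± 1.02 CPM (log2 fold change -0.68, adjusted p = 0.0061), whereas its paralogue HDAC2 (0.08), the chaperone RBBP7 (-0.24) and the demethylase KDM1A (0.14) were not called. Of 6 tested coactivators of MYB, KLF1 and GATA1, 3 fell, none rose, and the median was -0.86. Among those that fell were SMARCA4 (-0.67, adjusted p = 0.0361) and EP300 (-1.40, adjusted p = 0.0086), while MED1 (-0.38) was not called.

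Among 8 tested regulators of globin genes outside the members, 1 rose, 1 fell and 6 were not called, with a median of -0.37. NR2F2, a repressor of embryonic and fetal globin, rose (1.53, adjusted p = 0.00078), and IGF2BP1 (-0.27), HIC2 (-0.48) and NFIA (-0.69) were not called. Of 7 other KLF and SP factors 1 rose and 2 fell, with a median of -0.41. SP1 (-1.06, adjusted p = 0.0083) and KLF10 (-1.62, adjusted p = 0.00047) fell, and KLF6 (0.29) and SP3 (-0.51) were not called. Of 16 factors of other blood lineages and stem cells 3 were tested: SPI1, the myeloid and lymphoid factor PU.1 that opposes GATA1, fell from 26.1 ± 2.87 to 6.02 ± 1.27 CPM (SD, n = 3; log2 fold change -2.08, adjusted p = 8.1e-05), MEIS1 fell (-1.15, adjusted p = 0.0028) and ETV6 (-0.10) was not called. Of 10 tested genes of erythroid cytokine signalling 1 rose and 2 fell, with a median of -0.37. STAT5B fell (-0.76, adjusted p = 0.0359), and PIM1 (-0.19), SOCS2 (-0.06) and STAT5A (-0.49) were not called.

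The list of genes that the erythroid factors are known to activate had globin, haem and membrane genes. Of 20 tested, 10 rose, 2 fell and 8 were not called, with a median of 0.54, beside 14.9% of protein-coding genes that rose and their median of -0.24. Under total-count scaling 4 rose and 7 fell with a median of -0.13. Among protein-coding genes, 53.0% of those with exon lengths up to 1000 nt rose, and 31.0% of those of 1000 to 2000 nt. BLVRB, a haem-breakdown enzyme, rose from 410 ± 55.7 to 555 ± 28.0 CPM (log2 fold change 0.42, adjusted p = 0.0228), and UROD, of haem synthesis, from 129 ± 24.8 to 203 ± 39.7 (0.62, adjusted p = 0.0080). GYPC, a glycophorin (0.52), was not called. Of the globin genes, which were named after their values were seen, HBG2 rose by 4.30, HBZ by 3.20 and the alpha-globin chaperone AHSP by 2.15 on the log2 scale, the 3 EV-enriched genes of the list. HBG1 rose by 0.75, HBA1 by 1.28 and HBA2 by 1.26, calls that held in 6, 10 and 11 of 14 alternatives. HBG1 and HBG2 are near-identical copies whose reads the counting could split, so the HBG2 value is uncertain. HBA1 and HBA2 had almost equal reads in each library (10 and 11, 21 and 22, and 27 and 26 in EV). Their calls cannot be taken as separate, and whether the counting split shared reads between them was not tested. The transferrin receptor TFRC fell (-1.11, adjusted p = 3.5e-05), as did TFR2 (-1.56, adjusted p = 0.00091). The only tested gene of 10 megakaryocyte genes was ITGA2B, the integrin alpha-IIb chain and a GATA1 and NFE2 target, which fell from 51.4 ± 6.68 to 7.55 ± 3.51 CPM (SD, n = 3; log2 fold change -2.80, adjusted p = 2.6e-07).

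At the filter's cutoff, 7 of the 34 called genes of these lists had no library of their lower group: HBZ and AHSP were tested only through EV, and SPI1, CBFA2T2, GATAD2B, NR2C1 and SOCS3 only through WC, so such a gene had to differ to be tested. With every gene of at least 5 reads on average in WC or in EV, the log2 fold changes were 3.16 for HBZ and 2.11 for AHSP. They were -2.13 for SPI1, -1.73 for CBFA2T2 and -1.83 for GATAD2B. SPI1, CBFA2T2, GATAD2B, NR2C1 and SOCS3 averaged fewer than 5 reads in EV and entered that filter through WC only as well. For these genes it repeats the same selection and cannot remove it. The 7 genes kept their calls under that filter and with no filter. Of the 34 calls in these lists, 16 held in every alternative that tested the gene. Among them LYL1, NR2F2, KLF3, HBG2, HBZ and AHSP rose, and RUNX1, HDAC1, GATAD2B, KLF10, SPI1, MEIS1, TFRC, TFR2 and ITGA2B fell. The alternatives used the same counts, so the limit on HBG2 from its near-identical copy HBG1 applies in each of them. NFE2L2 lost its call only under total-count scaling (0.66, adjusted p = 0.058), EP300 only without EV library 1 (adjusted p = 0.136) and SP1 only without EV library 3 (adjusted p = 0.0545). CBFA2T2 lost its call with DESeq2 and without EV library 2 or 3. NR2C1 kept its call in 4 of 10 alternatives and SOCS3 in 5 of 11. Both lost it with DESeq2, with the replicate block, with protein-coding genes only and without any 1 of the EV libraries. TCF3, STAT5B, SMARCA4, BLVRB and UROD lost theirs in 6 to 9 alternatives, among them DESeq2 and at least 3 of the fits that left out 1 library. With the replicate number as a block, none of the globin regulators fell, and 2 genes of erythroid cytokine signalling rose and 1 fell. Under total-count scaling the median of the complex partners was -0.34 and that of the corepressors -0.63, both negative, with 1 and 0 genes that rose.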

How the data were processed

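RNA of K562 whole cells (WC) and of their extracellular vesicles (EV) was sequenced as nanopore PCR-cDNA, 3 libraries each. The authors mapped reads to the human genome (hg38) with minimap2 and counted them per gene with featureCounts. The deposited gene counts are raw counts made by the authors, with no normalization. The authors' isoform models and productivity calls came from FLAIR, and the deposited isoform signal is the authors' normalized mean over all libraries. Deposited columns of fold changes, p-values and group means hold the authors' own comparison and were not used. Strand setting and treatment of multimapping reads are not given in the sources used here.

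The count table has 68247 lines for 68201 genes (46 repeated identifiers, the line with more reads kept). The test of EV against WC was that of edgeR 4.0.16 under R 4.3.3 (quasi-likelihood, TMM, filterByExpr with a minimum count of 10, robust, Benjamini-Hochberg over 8716 genes) and called at an adjusted p under 0.05. The method was tested on simulated data first. The simulation changed a small share of genes in random directions, so it does not test the choice of scaling. CPM used TMM-scaled totals. Members were matched by gene identifier, with positions and exon lengths from GENCODE 44, and TPM used the union of exons. Sequences were read from the GRCh38 genome. The 10 genes and all lists were chosen with earlier results of these data known. From each list the 4 tested genes with the highest mean CPM were named, with all members and genes that overlap them, and some genes under that rule are not reported here. Intervals of counts and shares cover counting error only, since PCR reads without molecular identifiers are not independent molecules.

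Per the study's methods, each replicate gave cells and vesicles, and a flow cell held 1 WC and 1 EV library, so the replicate number was taken to pair libraries. Deviations of same-numbered WC and EV libraries correlated at 0.06, 0.02 and 0.004. No pair of replicates agreed within sampling noise (chi-square per degree of freedom 1.20 to 4.97), so none was merged. Alternatives were DESeq2 1.42.0, RLE and total-count scaling, other filters, a replicate block, WC libraries thinned to EV depth, protein-coding genes only, another transcript length and each library left out.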

Additional observations from a re-analysis of the deposited data

How the results depend on the processing

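LMO2 and TAL1 rose in each of the 13 alternatives that tested them. The fits with RLE or total-count scaling and with the replicate block kept the filter on low counts. LMO2 passed that filter in 0 WC and 3 EV libraries, so these fits repeat the selection and cannot remove it. LMO2 kept a log2 fold change above 2 in each of the 13. TAL1 fell below the mark of 2 under total-count scaling (1.59), without WC library 2 (1.98) and without EV library 1 (1.92). With WC libraries thinned to EV depth, LMO2, TAL1 and LDB1 dropped below the filter, so that 1 of the members rose there. The number of members that fell was 1 with DESeq2, 6 under total-count scaling, 0 with protein-coding genes only and 1 to 1 with any 1 library left out, where 3 to 3 rose. Over all tested genes 1987 rose and 1864 fell. These became 1066 and 4494 under total-count scaling, 1216 and 1120 after thinning, 1178 and 1136 with protein-coding genes only, and 1487 to 2012 and 1390 to 1876 with 1 library left out. GATA1, not called, changed sign under total-count scaling (-0.52, called as lower there with an adjusted p of 0.0270), with no filter (-0.077), with thinned WC libraries (-0.063), and in leave-one-out fits that ranged from -0.12 to 0.23, negative without WC library 3 (-0.04) and EV library 1 (-0.12). The cause was not tested. With each gene's longest transcript as length, 4 members, LMO2 and GATA2 among them, took another rank in the EV order and 0 in the WC order. The difference in the GATA1 share was 5.67 to 9.67 percentage points with 1 library left out.

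With the replicate number as a block, 3 members rose and 2 fell as without it, with log2 fold changes of 2.91 for LMO2, 2.17 for TAL1 and 0.98 for MYB. Over all genes 1890 rose and 1693 fell, and the block changed no other call of a member. No paired analysis was possible for the isoforms because the values used were pooled over libraries.

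Depth limits the EV values: a member had at most 97 reads in an EV library, and LDB1 had 7 in each.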
